A study of Homo sapiens with 6 samples.

Results

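LINC genes are long intergenic noncoding RNA genes that carry only a systematic number as their name. The LINC genes described here were chosen by their read counts: a gene was kept if its symbol was LINC followed by 5 digits and it had at least 20 counts in each of 3 or more of the 6 libraries. Of 28395 genes in the count table, 1321 had such a symbol and 141 passed this threshold. Another 677 had no count in any library, and 503 had counts but did not pass. RefSeq lists all 141 as long noncoding RNA genes. They lie on 23 chromosomes, with gene spans from 437 to 310784 bp and a median of 12291 bp.

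Long noncoding RNAs are transcribed and spliced much like messenger RNAs but are not known to be translated into long proteins. Some act in cis, at the site where they are transcribed, by affecting the activity of neighbouring genes. Others act elsewhere in the nucleus or the cytoplasm, by binding proteins, chromatin or microRNAs, and for most LINC genes no function is established. Their expression is often low and restricted to few tissues, and in glioma and other tumours many have been described as raised or lost.

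The study compared U251MG cells (U251), an established human glioblastoma cell line, with and without targeting of NUAK2, a kinase of the AMPK-related family. WT cells gave 3 libraries, and NUAK2-CR cells, in which CRISPR-Cas9 was directed at NUAK2, gave another 3. By the study's methods, NUAK2-CR cells were transduced with lentiviral CRISPR vectors carrying GFP and mCherry, sorted and grown from single cells. No vector control is named for the WT libraries, and the labels do not name a clone. An effect of the targeting, an effect of transduction or sorting, and a property of a clone therefore cannot be told apart. Both groups are cells of the same line with no drug treatment named, sequenced as polyadenylated RNA, and RNA without a poly(A) tail was not covered. Values below are normalized counts, that is, counts rescaled so that every library has the average effective size, and since they are not corrected for length, they compare libraries and not genes. Log2 fold changes are NUAK2-CR over WT. A gene is called where the adjusted p of the edgeR quasi-likelihood F test over all genes tested was under 0.05. The SE in parentheses is an approximate standard error, the absolute log2 fold change divided by the square root of the F statistic. For genes with very few reads in a group, it can be smaller than counting error alone.

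Total counts were 35310946 to 55574081 in WT and 29648445 to 33776712 in NUAK2-CR libraries, so that the threshold of 20 counts corresponded to 0.36 to 0.675 CPM, a gene's counts scaled by the total counts of its library. NUAK2 itself had 1926, 1457 and 1580 normalized counts in WT, against 799, 961 and 849 in NUAK2-CR libraries (log2 fold change -0.93, SE 0.11, adjusted p = 1.8e-05, edgeR). The glioblastoma markers GFAP, VIM, NES, SOX2, CD44 and EGFR were present in every library. OLIG2 was at 0 in all 6, as were AIF1, CD3E and MOG, markers of microglia, T cells and oligodendrocytes. GFAP was lower in NUAK2-CR cells (81980 to 91559 against 13682 to 15701 normalized counts) and the neuronal gene SNAP25 higher (57.8 to 76.3 against 686 to 834). VIM, NES, SOX2 and CD44 were lower as well, whereas EGFR was higher (log2 fold change 0.70, adjusted p = 1.92e-05, edgeR). Of the other neuronal markers, SYT1 and STMN2 were higher, and RBFOX3 was not called (log2 fold change -0.68, adjusted p = 0.328, edgeR). The part of these marker shifts in the LINC results was not tested, and in bulk RNA fewer cells that express a gene and less RNA per cell cannot be told apart.

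LINC genes as a class took up a similar share of the reads in both groups. All 1321 LINC genes together made up 936, 882 and 888 CPM in WT and 900.3, 887 and 903 CPM in NUAK2-CR libraries, and these ranges overlap. Behind this even total, individual genes moved in both directions, among them a few that were close to absent in one group.

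Starts of 4 LINC genes with large differences between the groups, described further on, are given here, with that of SOX21, the neighbour of LINC00391 and itself lower in NUAK2-CR cells. Each window covers 250 bases before to 50 bases after a transcription start of RefSeq (GRCh38.p14), written 5′ to 3′ on the gene's own strand. Capitals mark matches, on either strand, to the motifs GGAATG (bound by TEAD factors, the DNA-binding partners of YAP and TAZ), TGANTCA (AP-1), ACAATG (SOX factors) and TATAAA (the TATA box).
LINC00391 (chr13:94708452-94708751, minus strand): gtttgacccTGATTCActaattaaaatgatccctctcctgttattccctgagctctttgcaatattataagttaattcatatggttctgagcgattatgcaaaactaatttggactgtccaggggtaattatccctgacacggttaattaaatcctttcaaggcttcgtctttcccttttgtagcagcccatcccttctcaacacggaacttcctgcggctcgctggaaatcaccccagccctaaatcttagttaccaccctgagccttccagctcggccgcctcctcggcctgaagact
SOX21 (chr13:94712496-94712795, minus strand): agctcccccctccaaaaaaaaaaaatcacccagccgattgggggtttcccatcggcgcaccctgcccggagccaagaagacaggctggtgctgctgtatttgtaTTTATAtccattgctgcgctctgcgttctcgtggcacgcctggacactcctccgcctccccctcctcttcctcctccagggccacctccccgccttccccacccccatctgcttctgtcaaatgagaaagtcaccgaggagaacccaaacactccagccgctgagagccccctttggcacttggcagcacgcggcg
LINC01411 (chr5:174336104-174336403, plus strand): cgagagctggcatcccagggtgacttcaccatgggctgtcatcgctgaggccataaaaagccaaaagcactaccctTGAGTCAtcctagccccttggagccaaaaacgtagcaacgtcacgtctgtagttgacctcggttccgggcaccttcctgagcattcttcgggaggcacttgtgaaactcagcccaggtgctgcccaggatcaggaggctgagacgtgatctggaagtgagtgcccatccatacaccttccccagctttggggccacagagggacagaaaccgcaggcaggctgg
LINC00664 (chr19:21483465-21483764, plus strand): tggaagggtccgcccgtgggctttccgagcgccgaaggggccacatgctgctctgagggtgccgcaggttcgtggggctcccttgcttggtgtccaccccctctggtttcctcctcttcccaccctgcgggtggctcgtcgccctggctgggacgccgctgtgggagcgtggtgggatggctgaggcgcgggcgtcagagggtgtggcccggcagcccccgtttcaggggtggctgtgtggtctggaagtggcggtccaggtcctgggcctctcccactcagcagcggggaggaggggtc
LINC01667 (chr21:9821012-9821311, minus strand): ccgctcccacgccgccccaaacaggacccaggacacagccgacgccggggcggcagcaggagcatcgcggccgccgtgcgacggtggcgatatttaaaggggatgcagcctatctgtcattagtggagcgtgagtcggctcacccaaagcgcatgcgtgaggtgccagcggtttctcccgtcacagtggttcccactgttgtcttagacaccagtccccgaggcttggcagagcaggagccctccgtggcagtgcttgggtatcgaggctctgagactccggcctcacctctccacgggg

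The windows of LINC00391 and LINC01411, both close to lost in NUAK2-CR cells, each held 1 AP-1 match. LINC00664 and LINC01667, both raised, held no match to any of the 4 motifs. The SOX21 window held 1 TATA match, on its opposite strand, and its start lies 4044 bp upstream of that of LINC00391 on the same strand. RefSeq windows were available for 105 of the 141 LINC genes, of which the first listed start was used. The AP-1 motif was found in 12.4% of these 105 windows and in 7.76% of the windows of all 27305 genes with 1. For the TEAD motif the shares were 9.52% and 14.0%, for the SOX motif 4.76% and 11.0%, and for the TATA box 12.4% and 12.0%. Windows with the AP-1 motif numbered 4 of 30 LINC genes called higher, 5 of 25 called lower and 4 of 50 not called. CpG content was also read from the windows, as the density of CG dinucleotides relative to base composition that marks CpG island promoters. The median ratio of observed to expected CG was 0.449 for LINC genes called higher, 0.413 for those called lower and 0.673 for those not called, against 0.58 over all windows. A ratio over 0.6 was reached by 9 of 30, 9 of 25 and 31 of 50 LINC genes. These are descriptions of the letters in the windows, and called genes also differ from the others in read count.

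Of the 141 LINC genes, 75 were called, 43 higher and 32 lower in NUAK2-CR cells. This share of 53.2% stood beside 54.5% of all 14873 genes tested and 56.6% of all genes that passed the same count threshold. It includes LINC genes that passed the threshold through libraries of 1 group only, all of them called. Among the 13999 genes that passed the same count threshold, 27.4% were called higher and 29.2% lower, beside 30.5% and 22.7% of the LINC genes. The median log2 fold change was 0.22 over the LINC genes and -0.01 over all genes tested. Values of the groups did not overlap for 83 LINC genes, against 63.3% of all genes that passed the threshold. For the 66 LINC genes not called, log2 fold changes ran from -1.10 to 0.85.

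The threshold itself tied part of this to the groups. For 90 LINC genes all 6 libraries had at least 20 counts, and 51 of these were called, 34 higher and 17 lower. A further 35 passed through libraries of both groups, with 5 called higher and 3 lower. Another 12 reached 20 counts in WT libraries only and 4 in NUAK2-CR libraries only. The raw counts of such genes had to differ between the groups, so their number is no result. WT libraries were also sequenced more deeply, and 125 to 134 of the LINC genes had 20 counts or more in a WT library against 111 to 123 in a NUAK2-CR library. Just inside the threshold stood LINC00525 and LINC01465, with a third-highest count of 21, and LINC01315, with 22. LINC00513, LINC00887 and LINC01094 stood just outside it, each with a third-highest count of 19.

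**Figure D1:**
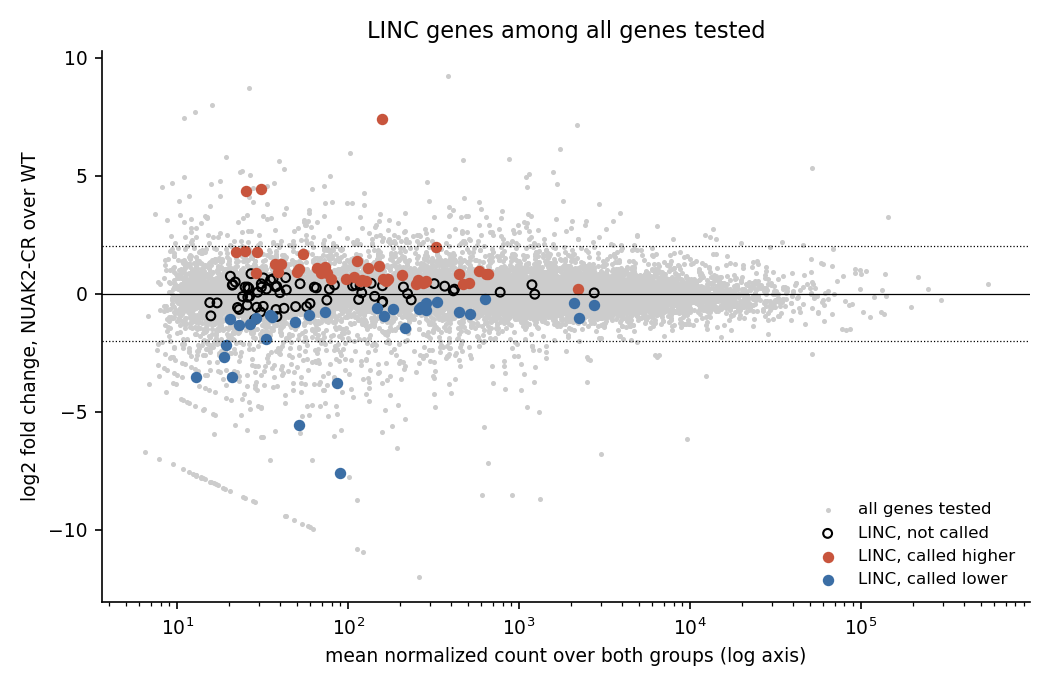
Log2 fold change (NUAK2-CR over WT, y axis) against the mean normalized count over both groups (x axis, log scale) for all 14873 genes tested (grey) and the 141 LINC genes, with dotted lines at log2 fold changes of -2 and 2. LINC genes called higher (43, red) and lower (32, blue) lie on both sides of 0, and 10 lie beyond the dotted lines.

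Besides being called, 10 LINC genes had an absolute log2 fold change over 2, the cut-off used by the study. Of these, 7 were lower and 3 higher in NUAK2-CR cells, beside 2.53% and 1.74% of all genes that passed the count threshold. All 10 passed that threshold through libraries of 1 group only, so they are described here gene by gene. None of the 90 LINC genes with 20 counts in every library went beyond this cut-off. Fitted fold changes of genes so close to 0 in 1 group depend on the prior count. With a prior count of 2 in place of the edgeR default the log2 fold changes given here became -6.01 for LINC00052, -4.69 for LINC01411, -2.72 for LINC01563, 6.42 for LINC00968, 3.71 for LINC01667 and 3.58 for LINC00664.

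LINC00052, on chromosome 15 (chr15:87576929-87579686, plus strand), showed the lowest log2 fold change among the LINC genes. It had 171, 179 and 182 normalized counts in the WT libraries and 0, 0 and 2.20 in the NUAK2-CR libraries. An RNA seen at an even level in every WT library was thus represented by 2 reads in all NUAK2-CR libraries together. The log2 fold change was -7.60 (SE 0.47, adjusted p = 5.96e-08, edgeR). Taken as a ratio of summed reads, WT was 223-fold higher, with a 95% interval of 61.4 to 1843 that covers counting error only. On the log2 scale this interval is much wider than the SE implies, so the SE understates the uncertainty. Leaving out NUAK2-CR replicate 3, the remaining NUAK2-CR libraries were at 0, and the gene was at least 94.98-fold lower, taking 3 counts over that group as the limit. LINC00052 is best known from breast and liver cancer cells. The nearest tested coding gene, NTRK3, a neurotrophin receptor 280064 bp away, was lower too (log2 fold change -1.19, adjusted p = 1.18e-07, edgeR).

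LINC01411, on chromosome 5 (chr5:174336354-174527139, plus strand), followed the same pattern at a lower level. WT libraries held 94.99, 101 and 107 normalized counts, and NUAK2-CR libraries 0, 6.03 and 0. Its log2 fold change was -5.59 (SE 0.60, adjusted p = 6.9e-06, edgeR), and the ratio of summed reads 50.7 (95% counting interval 21.5 to 157). All of its NUAK2-CR reads came from replicate 2, without which it was at least 56.7-fold lower against a limit of 3 counts over the group. Without replicate 3 the log2 fold change was -4.98. MSX2, a homeobox gene induced by BMP signalling, was its nearest tested coding gene at 197442 bp and was also lower (log2 fold change -1.55, adjusted p = 1.18e-06, edgeR).

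LINC00391, on chromosome 13 (chr13:94698725-94708501, minus strand), lies beside SOX21, which encodes a transcription factor of neural progenitor cells. Its expression was 163, 157 and 161 normalized counts in WT, against 12.7, 4.82 and 16.5 in NUAK2-CR cells. The NUAK2-CR libraries thus kept some reads, with a ratio of 14.0 between the groups (95% counting interval 9.64 to 21.1). On the log2 scale the difference was -3.80 (SE 0.32, adjusted p = 9.5e-07, edgeR). SOX21, 1120 bp away, had means of 1941 and 116 normalized counts, a log2 fold change of -4.06 (adjusted p = 3.81e-11, edgeR). The median log2 fold change of the 20 coding genes nearest to LINC00391 was -0.37.

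LINC00693, on chromosome 3, had 32.5, 36.7 and 46.2 normalized counts in WT, against 2.54, 4.82 and 2.20 in NUAK2-CR cells. The groups were far apart, with a log2 fold change of -3.54 (SE 0.49, adjusted p = 5.88e-05, edgeR). Its nearest tested coding gene, ZCWPW2, 48919 bp away, was not called (log2 fold change -0.47, adjusted p = 0.395, edgeR). LINC01563, on chromosome 17, had 25.2, 23.2 and 23.6 normalized counts in WT, against 0, 2.41 and 3.29 in NUAK2-CR cells (log2 fold change -3.53, SE 0.63, adjusted p = 4.80e-04, edgeR). Without NUAK2-CR replicate 3 this became -4.15. The adjacent USP22, a ubiquitin-specific protease 32136 bp away, was lower by far less (log2 fold change -0.31, adjusted p = 0.00332, edgeR).

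LINC02520, on chromosome 6, and LINC01234, on chromosome 12, had fewer reads and more spread. LINC02520 had 36.5, 22.2 and 39.8 normalized counts in WT, against 0, 2.41 and 12.1 in NUAK2-CR cells. It was lower by 2.67 on average on the log2 scale, with a log2 fold change of -2.67 (SE 0.68, adjusted p = 0.0051, edgeR) that moved to -4.60 without NUAK2-CR replicate 3. CCDC167, 7454 bp from it, was lower as well (log2 fold change -0.67, adjusted p = 4.77e-04, edgeR). LINC01234, described as raised in several carcinomas, had 30.6, 34.7 and 29.0 normalized counts in WT, against 12.7, 6.03 and 2.20 in NUAK2-CR cells. Its log2 fold change of -2.19 (SE 0.51, adjusted p = 0.00304, edgeR) was just beyond the cut-off of 2 and fell inside it without NUAK2-CR replicate 3 (-1.74) or with a prior count of 2 (-1.92), while without replicate 1 it was -2.90. RBM19, the nearest tested coding gene at 43056 bp, was not called (log2 fold change -0.18, adjusted p = 0.175, edgeR).

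LINC00968, on chromosome 8, was the counterpart of LINC00052 in the other direction. It had 2.66, 0 and 2.15 normalized counts in WT, against 253, 338 and 354 in NUAK2-CR cells. From 6 reads in the WT libraries together it rose to 801 in the NUAK2-CR libraries, a ratio of 183 (95% counting interval 83.9 to 501). The log2 fold change was 7.42 (SE 0.38, adjusted p = 1.21e-08, edgeR) and 8.10 without WT replicate 1. Here too the counting interval is wider on the log2 scale than the SE implies. CHCHD7, the nearest tested coding gene at 299508 bp, was not called (log2 fold change 0.14, adjusted p = 0.254, edgeR).

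LINC01667, on chromosome 21 (chr21:9781848-9821061, minus strand), lies in a stretch with few genes, and its nearest tested coding gene, LOC102724594, is 3282599 bp away. Its values were 1.99, 1.93 and 4.30 normalized counts in WT, against 92.7, 48.2 and 36.2 in NUAK2-CR cells. All NUAK2-CR libraries were above all WT libraries, though they differed among themselves (log2 fold change 4.42, SE 0.55, adjusted p = 2.63e-05, edgeR). LOC102724594 was called higher (log2 fold change 3.65, adjusted p = 0.00881, edgeR) through NUAK2-CR replicate 1, which held 1579 reads of it against 81 and 59 in replicates 2 and 3. Without that library its log2 fold change was 0.53 and not called (adjusted p = 0.17, edgeR). LINC00664, on chromosome 19 (chr19:21483715-21503238, plus strand), lies among the zinc finger genes of that chromosome. It had 3.99, 1.93 and 0 normalized counts in WT, against 53.3, 33.8 and 58.2 in NUAK2-CR cells (log2 fold change 4.36, SE 0.59, adjusted p = 5.05e-05, edgeR). Leaving out WT replicate 1, which held most of its WT reads, gave 5.41. ZNF429, only 2363 bp from it, was not called (log2 fold change 0.38, adjusted p = 0.168, edgeR).

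**Figure D2:**
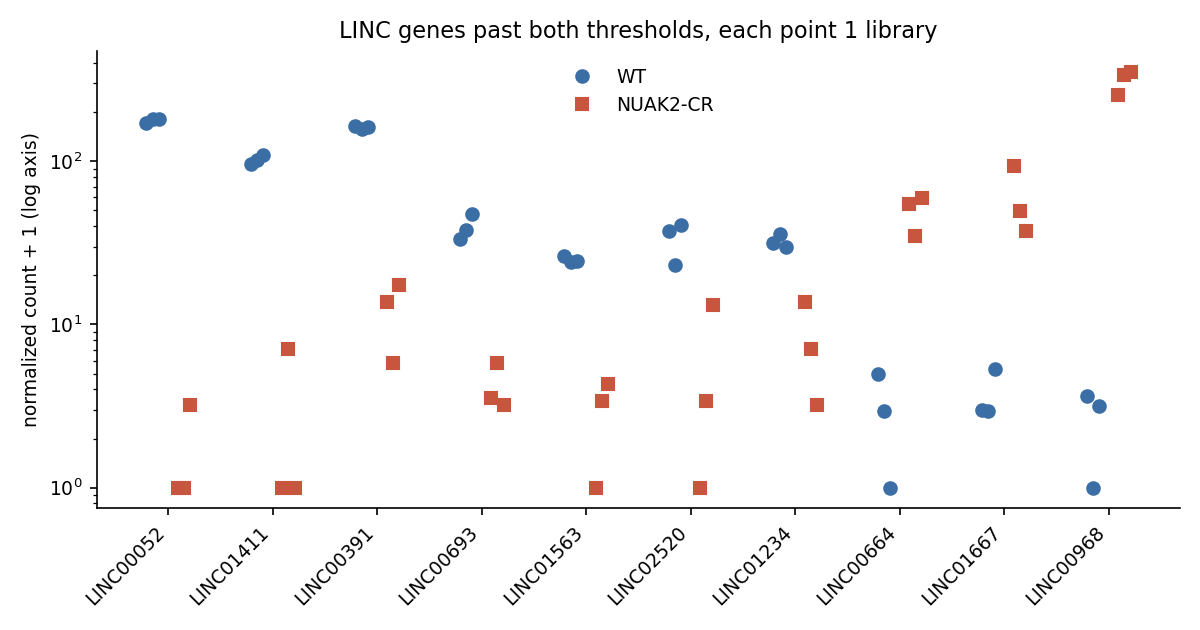
Normalized counts plus 1 (y axis, log scale) of the 10 LINC genes past both thresholds, with 1 point for each of the 3 WT (blue circles) and 3 NUAK2-CR libraries (red squares). The groups are apart for every gene, which largely follows from how these genes were chosen. LINC00052 and LINC01411 each have 2 NUAK2-CR libraries at a count of 0.

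The 8 LINC genes with the highest read counts had absolute log2 fold changes of up to 1.02, and 3 of them were lower, 1 higher and 4 not called. LINC00673, also known as SLNCR1 and described in melanoma invasion, was the most strongly changed. It had 2790, 2972 and 3198 normalized counts in WT, against 1319, 1527 and 1558 in NUAK2-CR cells (log2 fold change -1.02, SE 0.08, adjusted p = 6.76e-07, edgeR). Every NUAK2-CR library was thus below every WT library. SLC39A11, a zinc transporter gene 53144 bp away on chromosome 17, was also lower (log2 fold change -0.60, adjusted p = 5.88e-04, edgeR).

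LINC00674, on the same chromosome, had 3337, 3060 and 3138 normalized counts in WT, against 2278, 2376 and 2208 in NUAK2-CR cells, a log2 fold change of -0.48 (SE 0.07, adjusted p = 8.11e-05, edgeR). KPNA2, an importin gene 54700 bp away, was lower by more (log2 fold change -1.70, adjusted p = 2.72e-09, edgeR). LINC02067, on chromosome 3, had 2352, 2313 and 2508 against 1652, 1885 and 1920 normalized counts (log2 fold change -0.39, SE 0.08, adjusted p = 9.02e-04, edgeR). In both genes the groups did not overlap. The nearest tested coding gene of LINC02067, SPTSSB at 54909 bp, was sparsely read, at -2.29 on the log2 fold change scale (adjusted p = 0.016, edgeR), and was not called without NUAK2-CR replicate 3 (adjusted p = 0.0645, edgeR) and at -3.80 without replicate 2.

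LINC00205, on chromosome 21, was the highest-count LINC gene called higher, by a small margin. WT libraries had 2155, 2069 and 1936 and NUAK2-CR libraries 2427, 2398 and 2266 normalized counts (log2 fold change 0.20, SE 0.07, adjusted p = 0.028, edgeR). The call did not hold when WT replicate 2 or 3 or NUAK2-CR replicate 1 or 2 was left out, with adjusted p from 0.0545 to 0.12 (edgeR). POFUT2, a fucosyltransferase gene 156 bp away, was higher (log2 fold change 0.54, adjusted p = 6.29e-05, edgeR).

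LINC00667, LINC00963, LINC02693 and LINC01000 were not called. LINC00667 had 2712, 2706 and 2738 normalized counts in WT, against 2843, 2646 and 2848 in NUAK2-CR cells, with a ratio of summed reads of 1.02 and a 95% counting interval of 0.992 to 1.06. LINC00963 had 875, 700.4 and 697 against 841, 747 and 789, and LINC02693 had 1322, 1137 and 1274 against 1280, 1229 and 1165. In these 3 genes the ranges of both groups overlapped, with log2 fold changes of 0.03 (SE 0.07), 0.06 (SE 0.11) and -0.02 (SE 0.08). Of their nearest tested coding genes, ZBTB14, a zinc finger gene beside LINC00667, was higher (log2 fold change 0.33, adjusted p = 0.00521, edgeR). NTMT1, beside LINC00963, and KCNJ12, beside LINC02693, were not called (log2 fold changes -0.06 and 1.28), though KCNJ12 was called without WT replicate 3 (2.15, adjusted p = 0.0201, edgeR). LINC01000, on chromosome 7, had 1383, 952 and 758 normalized counts in WT, against 1453, 1329 and 1256 in NUAK2-CR cells. Its WT libraries spread widely, and WT replicate 1 lay within the range of NUAK2-CR. The log2 fold change was 0.38 (SE 0.17, adjusted p = 0.0752, edgeR), and without WT replicate 1 it was 0.66 and called (adjusted p = 2.91e-05, edgeR). GARIN1A, 10630 bp away, was not called (log2 fold change 0.29, adjusted p = 0.626, edgeR).

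Between these extremes lie the LINC genes that were well counted in both groups and still changed. The following were named after their values were seen, from the larger called changes among the 90 genes with 20 counts in every library, or for their neighbours. LINC00578, on chromosome 3 (chr3:177441921-177752704, plus strand), had 138, 114 and 141 normalized counts in WT, against 467, 492 and 602 in NUAK2-CR cells. This was a ratio of 3.98 (95% counting interval 3.58 to 4.44), a log2 fold change of 1.99 (SE 0.15, adjusted p = 3.41e-07, edgeR), just under the cut-off of 2. LINC02015, next on the same strand, passed the count threshold through NUAK2-CR libraries only and had 4.65, 17.4 and 11.8 against 38.1, 48.2 and 29.6 normalized counts (log2 fold change 1.82, SE 0.47, adjusted p = 0.00598, edgeR). Both genes were thus higher, while TBL1XR1, the nearest tested coding gene of both, was not called (log2 fold change 0.07, adjusted p = 0.4, edgeR).

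LINC00707, described as a promoter of growth in several tumours, was lower. It had 302, 340 and 303 normalized counts in WT, against 85.1, 139 and 115 in NUAK2-CR cells (log2 fold change -1.47, SE 0.18, adjusted p = 2.44e-05, edgeR). PRKCQ, the gene of protein kinase C theta at 198951 bp, was lower too (log2 fold change -2.29, adjusted p = 3.63e-05, edgeR). LINC00467, whose transcript is known to encode a small mitochondrial peptide, fell from 166, 220 and 259 to 103, 117 and 110 normalized counts (log2 fold change -0.96, SE 0.20, adjusted p = 0.00122, edgeR). TRAF5, 7808 bp from it, did not pass the test (log2 fold change 0.04, adjusted p = 0.76, edgeR). Of the LINC genes named with values, LINC00467, LINC02693 and LINC03033 hold stretches of 426, 878 and 993 bases with 95.1%, 96.2% and 95.3% identity to transcripts of genes elsewhere, and how the authors' counting treated such reads was not tested.

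LINC00472, described as a tumour suppressor in breast cancer, had 106, 96.5 and 77.4 against 270.5, 171 and 186 normalized counts. Its log2 fold change of 1.16 (SE 0.22, adjusted p = 6.88e-04, edgeR) stood beside 1.13 for OGFRL1, 98804 bp away (adjusted p = 1.59e-06, edgeR). LINC00663 had 21.9, 25.1 and 24.7 against 44.4, 57.9 and 70.3 normalized counts (log2 fold change 1.27, SE 0.31, adjusted p = 0.00412, edgeR), and ZNF506, a zinc finger gene 16297 bp away, 1.44 (adjusted p = 1.55e-05, edgeR). LINC00839, described in neuroblastoma, had 412, 366 and 399 against 803, 755 and 759 normalized counts (log2 fold change 0.97, SE 0.10, adjusted p = 3.76e-06, edgeR). In all of these genes the groups did not overlap.

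Some LINC genes went against their neighbour or moved far less. LINC00899 was lower (94.99, 82.0 and 102 against 45.7, 72.4 and 43.9 normalized counts, log2 fold change -0.78, SE 0.26, adjusted p = 0.0231, edgeR), while WNT7B, a WNT ligand gene 62744 bp away, was higher (log2 fold change 2.16, adjusted p = 1.63e-09, edgeR). The call of LINC00899 did not hold when WT replicate 3 or either of NUAK2-CR replicates 1 and 3 was left out (adjusted p 0.0701 to 0.0839, edgeR). LINC01061 was higher by 0.64 on the log2 scale (SE 0.22, adjusted p = 0.0239, edgeR), and PDE5A, the gene of a cyclic GMP phosphodiesterase 83742 bp away, by 3.82 (adjusted p = 1.29e-10, edgeR). LINC01061 was not called without WT replicate 2 or 3 or NUAK2-CR replicate 1 or 2 (adjusted p 0.0664 to 0.0963, edgeR). LINC03033 was lower (log2 fold change -0.88, SE 0.11, adjusted p = 2.39e-05, edgeR) and PRKCH, the gene of protein kinase C eta 19563 bp away, higher (log2 fold change 0.65, adjusted p = 2.07e-04, edgeR). LINC03033 shares exons with LINC01303, which was lower as well (log2 fold change -0.91, adjusted p = 0.0261, edgeR), and their reads may be split between them. LINC01303 was not called without WT replicate 2 or 3 or NUAK2-CR replicate 2 or 3 (adjusted p 0.0684 to 0.0977, edgeR). LINC00312, inside the span of LMCD1, had 23.2, 32.8 and 21.5 against 94.0, 77.2 and 76.8 normalized counts, a log2 fold change of 1.67 (SE 0.29, adjusted p = 3.35e-04, edgeR). LMCD1, a LIM domain cofactor gene, was higher by 1.31 (adjusted p = 1.25e-07, edgeR), and with counting that ignores strand, the featureCounts default, the reads of such overlapping genes are uncertain.

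Over all 141 LINC genes, the nearest tested coding gene lay a median of 32538 bp away, and for 106 it was within 100000 bp. Log2 fold changes of LINC genes and nearest coding genes had a Pearson r of 0.41 and a Spearman rho of 0.32 across the 141 pairs. With pairs within 100000 bp these were 0.39 and 0.35 (n = 106), and with pairs farther apart 0.46 and 0.20 (n = 35). Without the 16 LINC genes that passed the count threshold through 1 group only, they were 0.29 and 0.26 (n = 125). The pairs share the same 6 libraries, some LINC genes share a neighbour, and genes are not independent replicates, so the coefficients are descriptions. Both the LINC gene and its neighbour were called in 48 pairs, and in 37 of them (77.1%) the direction was the same, higher in 22 and lower in 15. Without the 16 genes this was 30 of 38 pairs. Called coding genes that passed the same count threshold and had a called nearest coding gene shared its direction in 72.8% of 4404 cases, so the share among LINC genes was close to that of coding genes. In 9 pairs the LINC gene was lower and the neighbour higher, and in 2 the reverse. Of the 10 LINC genes past both thresholds, LINC00391 and LINC01667 had a neighbour that also was, the latter through 1 library as given above.

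**Figure D3:**
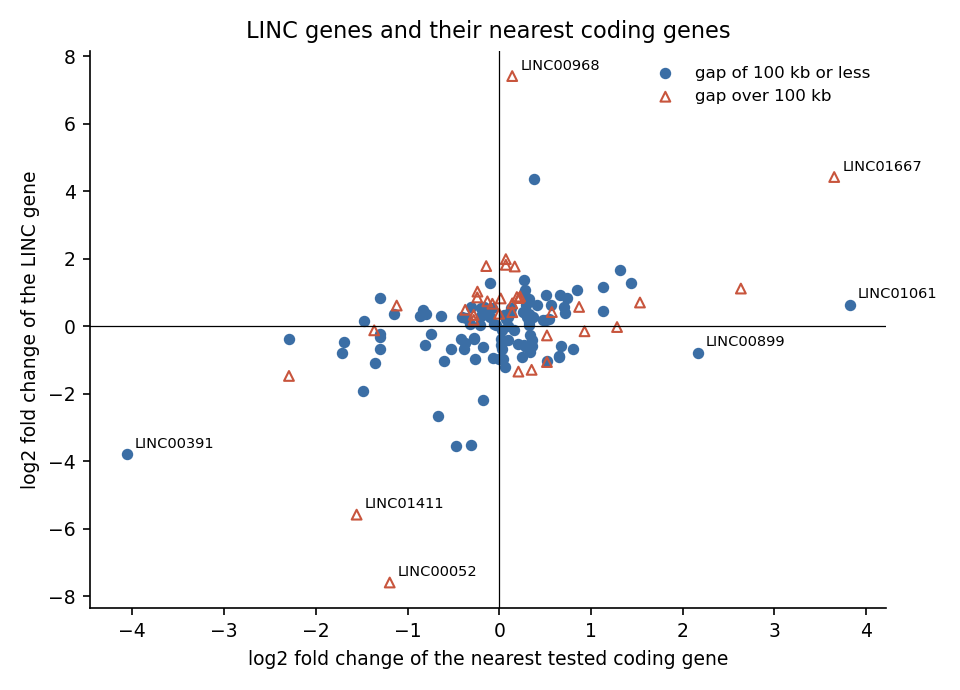
Log2 fold change of each of the 141 LINC genes (y axis) against that of its nearest tested protein-coding gene (x axis), with pairs within 100 kb as filled circles and pairs farther apart as open triangles. LINC00391 lies at the lower left with SOX21 (-3.80 and -4.06), whereas LINC00968 (7.42) lies above a neighbour at 0.14.

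By chromosome, the direction of the called LINC genes varied, with few genes on most and no test of the differences. On chromosome 1, none of 17 LINC genes was called higher and 5 were called lower, with a median log2 fold change of -0.38, and the 1384 tested coding genes of that chromosome had a median of -0.44. Of the coding genes on chromosome 1 that passed the count threshold, 9.64% were called higher and 64.2% lower. Chromosome 17 was similar, with 0 higher and 4 lower of 7 LINC genes, medians of -0.48 and -0.38, and 10.5% and 60.2% of its coding genes called higher and lower. Chromosomes 13 and X had similar coding medians (-0.47 and -0.42), but 1 LINC gene was called higher and 1 lower on each. Their LINC medians were 0.06 and -0.24. On chromosome 10, 7 of 12 LINC genes were called higher and 2 lower, with a median of 0.55, beside 32.0% and 25.8% of coding genes and a coding median of 0.06. Chromosome 7 had 6 higher and 1 lower of 13, with a median of 0.54, beside 36.1% and 16.5% of coding genes and a coding median of 0.14. Chromosome 20 had 0 higher and 2 lower of 6 LINC genes and a median of -0.53, with a coding median of 0.21 and 45.9% and 12.9% of coding genes called higher and lower. Across the 20 chromosomes with at least 3 LINC genes, the Pearson r between both medians was 0.28 and the Spearman rho 0.15. Copy number was not measured here.

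**Figure D4:**
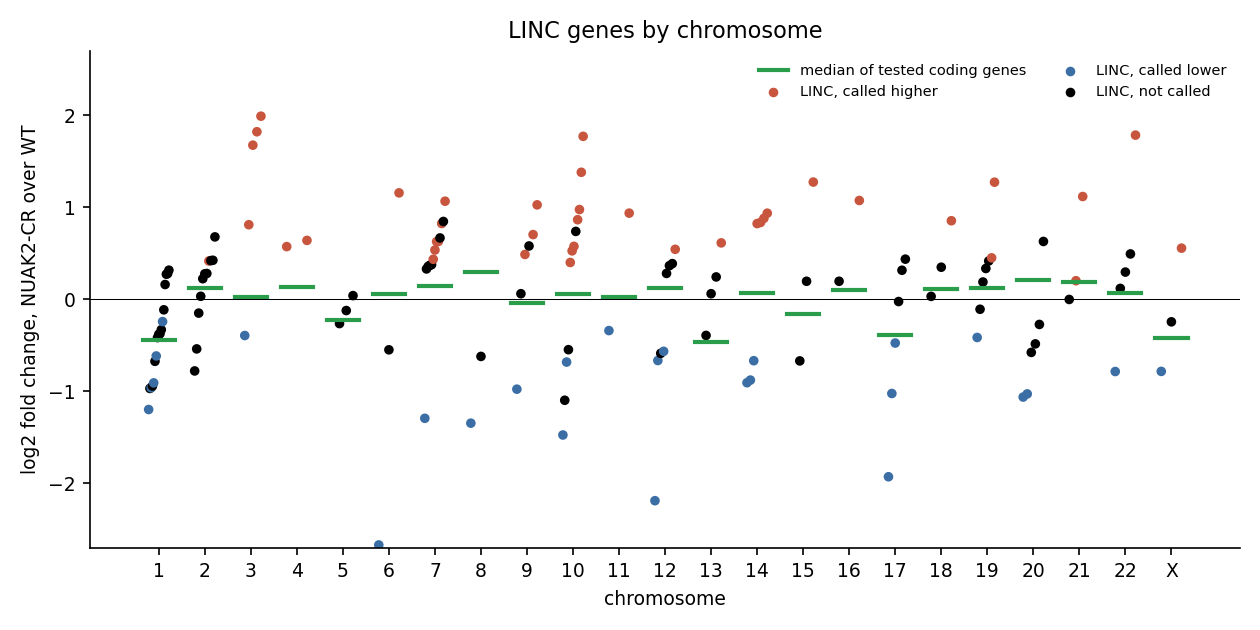
Log2 fold change (y axis) of the LINC genes on each chromosome (x axis), coloured by call, with a green bar at the median of the tested coding genes. On chromosomes 1, 5, 17 and 20 no LINC gene was called higher. Beyond the plotted range of -2.7 to 2.7 lie 8 LINC genes.

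Read depth per gene bears on how many LINC genes could be called. Of the 71 LINC genes at or above their median count, 47 were called, and of the 70 below it, 28. In the lowest class, under 50 normalized counts, 21 of 58 LINC genes (36.2%) and 39.9% of coding genes were called. From 200 to 500 normalized counts these were 16 of 23 (69.6%) and 54.2%, and from 500 upwards 10 of 14 (71.4%) and 62.3%. Between 50 and 100 normalized counts 63.6% of LINC genes and 48.3% of coding genes were called, and between 100 and 200 58.3% and 54.6%. The share of LINC genes called was thus below that of coding genes in the lowest class and above it in the other 4, and the difference was not tested. These shares include the 16 LINC genes that passed the count threshold through 1 group only, whose raw counts had to differ between the groups. All of them were called. Their median mean counts were 24.8 (WT only) and 28.0 (NUAK2-CR only), so they weigh most in the lowest class. Coding genes that passed in the same way were not taken out either.

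Other long noncoding RNAs were read from the same fit. Among those passing the same count threshold, 90 of 288 antisense RNAs were called, 58 higher and 32 lower. Host genes of microRNAs gave 9 of 18 (4 higher, 5 lower) and host genes of small nucleolar RNAs 10 of 22 (7 higher, 3 lower). Of 42 long noncoding RNAs with names of their own, 18 were called, 9 in each direction. The most abundantly read of these were NEAT1, the scaffold of paraspeckles, NORAD, which binds Pumilio proteins, and TUG1. NORAD was higher (16063 ± 1110 in WT and 23801 ± 872 in NUAK2-CR, SD, n = 3 each, log2 fold change 0.57, adjusted p = 2.65e-05, edgeR), as was TUG1 (log2 fold change 0.59, adjusted p = 5.77e-05, edgeR). NEAT1 varied among replicates of both groups and was not called (log2 fold change 0.25, adjusted p = 0.277, edgeR), though it was with a replicate block (0.23, adjusted p = 0.0483, edgeR). Past both thresholds were SOX2-OT, in whose intron SOX2 lies, and UCA1, known from bladder cancer. SOX2-OT had 1975, 2458 and 2405 normalized counts in WT, against 142, 175 and 190 in NUAK2-CR cells (log2 fold change -3.75, SE 0.13, adjusted p = 4.4e-10, edgeR). UCA1 had 65.1, 42.4 and 70.9 against 2.54, 3.62 and 0 (log2 fold change -4.82, SE 0.58, adjusted p = 1.97e-05, edgeR), with log2 fold changes of -5.51 and -4.21 without NUAK2-CR replicate 2 or 3 and -3.95 with a prior count of 2.

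**Figure D5:**
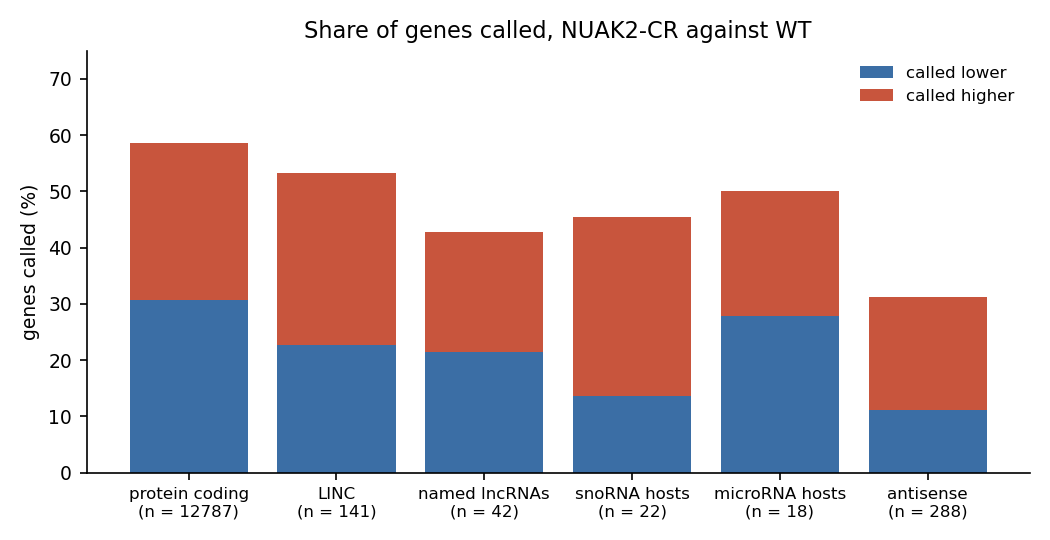
Share of genes called lower (blue) and higher (red), in percent of the genes of each class that passed the same count threshold (y axis from 0). For LINC genes 22.7% were called lower and 30.5% higher, beside 30.6% and 28.0% of coding genes.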

How the data were processed

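The deposited table holds raw counts of RNA-sequencing reads per gene for 3 WT and 3 NUAK2-CR libraries of U251 cells, grouped by the sample labels. Per the labels and methods, the authors made stranded libraries from polyadenylated RNA (Illumina) and ran Trimmomatic, HISAT2 (genome build hg38) and featureCounts, in that order and at default parameters, which for featureCounts means counting without regard to strand; the annotation is not given in the sources used here. The study's statistics section speaks of at least 3 independent experiments for its data in general, without naming the RNA sequencing. Whether these libraries were separate cultures is not stated, so p-values measure only the spread between these libraries.

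Identifiers were matched to RefSeq symbols for 27745 of 28395 genes. All genes kept by filterByExpr (14873) were tested in R 4.3.3 with edgeR 4.0.16 (TMM, quasi-likelihood F test, prior count 0.125) and Benjamini-Hochberg adjustment over all of them. Ratios of summed reads have exact 95% Clopper-Pearson intervals that cover counting error only. The pipeline was tested on simulated data. Neighbours, spans and promoters came from RefSeq (GRCh38.p14), exons and transcripts from GENCODE 44, which held 132 of the 141 LINC genes. Transcripts of 30 LINC genes, none past both thresholds, matched a non-overlapping gene over at least 200 bases at 95% identity or more.

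The LINC genes, gene lists, thresholds and tests were chosen with earlier results of these data known. By rule, the genes named with every library's value were those called with an absolute log2 fold change over 2 and the 8 with the highest mean; further LINC genes were named after their values were seen, as stated there. The nearest tested coding genes are named too, as are, from a list of other long noncoding RNAs, those past both thresholds and the 3 highest. Alternatives were DESeq2 1.42.0, RLE and library-size scaling, other filters, other count thresholds, a prior count of 2, a replicate block and each library left out in turn. Tables were joined with pandas 2.3.3 (Python 3.11.15), and figures drawn with matplotlib 3.10.9. A result for 1 LINC gene and its neighbour is not reported here.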

Additional observations from a re-analysis of the deposited data

How the results depend on the processing

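Read counts of single LINC genes limit the precision, since 70 of 141 had mean counts below the class median of 73.5. The counts of LINC genes called higher and lower (43 and 32) were 41 and 26 with DESeq2 and 45 and 31 with RLE scaling, and 32 to 40 and 23 to 29 when a library was left out. With 20 counts required in all 6 libraries or 50 counts in 3, 17 and 21 were called lower. The 3 genes past both thresholds and higher became 0 with 20 counts in all 6 libraries or with at least 10 counts in every library, 1 at 50 counts, 16 at an absolute log2 fold change over 1, and 4 to 5 without a library (5 without WT replicate 1 or NUAK2-CR replicate 1). The 7 that were lower became 0, 0, 3 and 15 under the same settings, 11 at a threshold of 10 counts, and 7 to 8 without a library. A minimum in every library keeps out genes near 0 in 1 group by construction; the other thresholds do not.

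Other long noncoding RNAs called (125) ranged from 99 to 127 over all settings. A threshold of 20 normalized counts and the removal of genes sharing exons or spans with a tested gene were chosen after seeing the data, and gave 42 and 32, 43 and 29, and 38 and 27 called higher and lower. Leaving out a library moved the log2 fold change of LINC02693, not called, between -0.087 and 0.029 (0.029 without WT replicate 1, 0.011 without NUAK2-CR replicate 3). LINC01000 was called with DESeq2 (0.39), without a filter (0.37), without WT replicate 1 and with the replicate block. No call or direction changed for 24 of the 30 LINC genes named with a fold change, or for 26 of 33 other named genes. Among the latter, leaving out a library moved the log2 fold changes of 4 that were not called across 0, between -0.089 and 0.71 for GARIN1A, -0.018 and 0.41 for NEAT1, -0.17 and 0.0001 for NTMT1, and -0.024 and 0.11 for TRAF5 (-0.0066 without WT replicate 3). Deviations of equally numbered libraries from their group mean correlated at 0.043, -0.035 and 0.048, against -0.066 to 0.021 for libraries with different numbers. With 3 libraries in each group, these correlations cannot decide whether replicate numbers pair the libraries. With the replicate block, 41 LINC genes were called higher and 30 lower, 3 and 7 past both thresholds, and 124 other long noncoding RNAs; LINC01000 became called at 0.42.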
